A study of Mus musculus with 12 samples.

Results

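Transcript levels of 8 genes of arginine and polyamine metabolism were followed in group 2 innate lymphoid cells (ILC2s), lymphocytes that make type 2 cytokines without a rearranged antigen receptor. The genes were chosen by name, with no threshold on a measured value, although earlier results of these data were known when they were chosen: Arg1, Odc1, Slc7a1, Srm, Sms, Sat1, Azin1 and Amd1. All 8 of 8 were found among the 29542 genes of the files, by summing the transcripts of each gene, and all 8 passed the filter on low counts that left 14431 genes to test.

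The cells were sorted from skin-draining lymph nodes of C57BL6 mixed bone marrow chimeras. CD45.1 congenic hosts received 950 cGy and then marrow of CD45.2 Rag1-/- and of CD90.1 WT donors in equal parts, so cells of both genotypes shared their hosts. Every mouse was given IL-33, the cytokine that expands ILC2s, daily for 7 days, at 30 ng into each cheek and 240 ng into the peritoneum. The 12 libraries form 4 groups of 3: Rag1-/- donor cells 20 weeks after transplant, WT donor cells at 20 weeks, Rag1-/- donor cells at 8 weeks and WT donor cells at 8 weeks. The age of the animals is not given in the sources used here, nor whether each library is a mouse of its own, and p-values therefore measure the spread between libraries, which may be technical. Rag1, the targeted gene, had 0.37, 0.53 and 0.47 CPM (counts scaled to library size) in the Rag1-/- libraries of 20 weeks and 0, 0.72 and 0.98 in those of 8 weeks, and it was at 0 in all 6 WT libraries. Its reads, at most 0.98 CPM, were thus found only under the knockout label, and the Rag1-/- libraries are therefore called knockout-labelled. Which part of the gene these reads came from, and whether they bear on the genotype, was not tested. Thy1, which encodes CD90, had 16.8 to 37.8 CPM in knockout-labelled libraries and 2.96 to 5.70 CPM in WT libraries.

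Libraries held 11433625 to 32529806 estimated reads. All 12 genes of an ILC2 marker list averaged at least 1 TPM (a level scaled to library size and corrected for transcript length) in every group. WT replicate 2 and knockout-labelled replicate 3 of 8 weeks stood apart on the first and the second principal component. Dates of harvest and sequencing are not given in the sources used here, and a batch that separated the 2 times cannot be told apart from time itself. In bulk RNA, fewer cells of a type and less RNA per cell cannot be told apart either.

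Cells take up arginine through cationic amino acid transporters, of which Slc7a1 encodes CAT1, and arginase 1, encoded by Arg1, splits it into ornithine and urea. Ornithine decarboxylase, encoded by Odc1, turns ornithine into putrescine, the first polyamine, and is the most tightly controlled enzyme of the route: antizymes bind it and send it to the proteasome, and the antizyme inhibitor encoded by Azin1 frees it again. S-adenosylmethionine decarboxylase, encoded by Amd1, supplies the aminopropyl groups with which spermidine synthase (Srm) and spermine synthase (Sms) make spermidine and spermine. The acetyltransferase encoded by Sat1 marks the higher polyamines for export or breakdown. Mouse ILC2s are known to hold Arg1 constitutively.

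By the GENCODE M21 annotation (GRCm38), Arg1 (ENSMUSG00000019987) lies at chr10:24915221-24927484 on the minus strand and Amd1 at chr10:40287458-40302186, also minus. Odc1 (ENSMUSG00000011179) is at chr12:17544794-17551505 on the plus strand, and Slc7a1 (ENSMUSG00000041313) at chr5:148327410-148399904 on the minus strand. Sms (chrX:157443855-157492287) and Sat1 (chrX:155213132-155216449) share chromosome X and the minus strand, while Srm is at chr4:148591503-148594993 and Azin1 at chr15:38487427-38519266.

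The levels of the 8 genes spanned more than 2 orders of magnitude, and the order of their group means was the same in 3 of the 4 groups. In knockout-labelled cells of 8 weeks Azin1 stood above Sms, with 54.5 to 73.9 TPM for Azin1 and 36.4 to 51.2 TPM for Sms. On the TPM scale, Arg1 had the highest median over the 12 libraries, 552 TPM with a range of 374 to 784, and ranked between 181 and 440 among the genes above 0 of each library. Sat1 came next with a median of 385 TPM (228 to 536), then Sms with 65.1 (36.4 to 87.2), Azin1 with 62.2 (24.7 to 73.9), Amd1 with 23.6 (12.1 to 28.1), Odc1 with 9.47 (6.00 to 16.8), Srm with 5.34 (2.92 to 11.7) and Slc7a1 with 3.004 (2.25 to 4.44). Several neighbours in that order were not apart beyond their spread. Arg1 and Sat1 overlapped in both groups of 8 weeks, while every Arg1 value was above every Sat1 value in both groups of 20 weeks. Sms and Azin1 overlapped in knockout-labelled cells of 20 weeks and in WT cells of 8 weeks, Amd1 and Odc1 overlapped in WT cells of 8 weeks, Odc1 and Srm overlapped in knockout-labelled cells of both times, and Srm and Slc7a1 in those of 8 weeks. Arg1 transcripts outnumbered those of Odc1, the enzyme that uses its product, by a TPM ratio of 62.7, 98.3 and 69.7 in knockout-labelled and 80.9, 71.8 and 69.0 in 20-week WT libraries, against 22.4, 30.8 and 63.0 in knockout-labelled and 33.8, 24.9 and 54.2 in 8-week WT libraries. Reads given to near copies of Odc1, described below, are not counted in these ratios or in its place in the order. The most abundant copy, Gm15470, had 3.09 to 10.8 TPM.

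**Figure D1:**
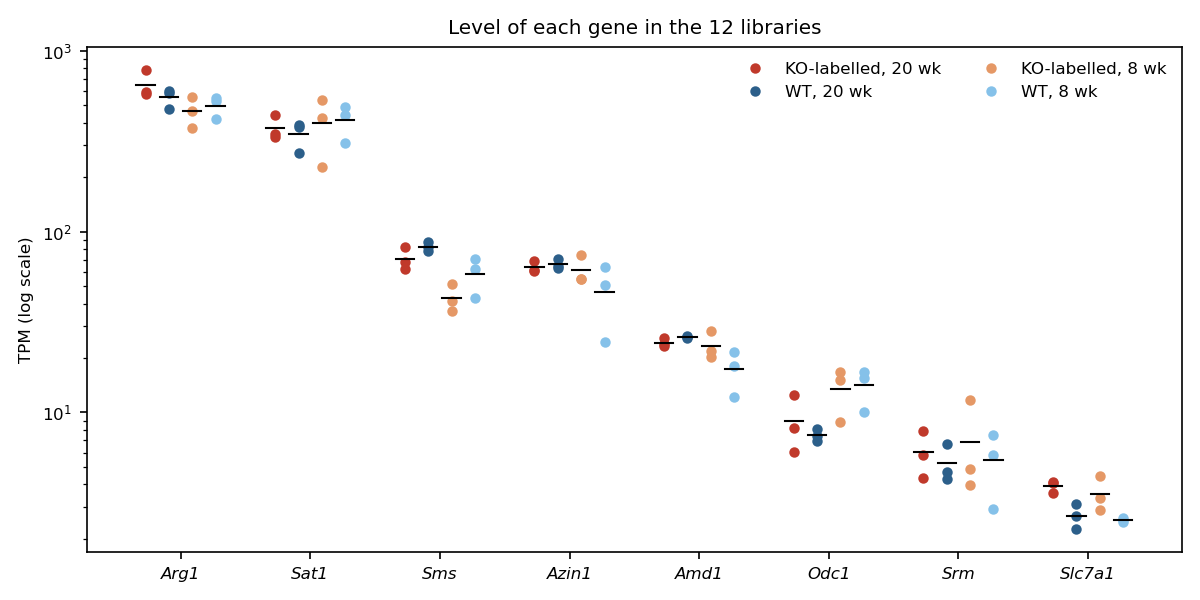
TPM of the 8 genes on a log axis in each of the 12 libraries, coloured by group, with a bar at the mean of each group of 3. Arg1 and Sat1 lie between 228 and 784 TPM, while Odc1, Srm and Slc7a1 lie between 2.25 and 16.8 TPM.

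The first question the design asks is whether these genes differ between the donor genotypes. None of the 8 was called, by edgeR's quasi-likelihood test at a Benjamini-Hochberg adjusted p under 0.05 over all 14431 genes, in knockout-labelled against WT cells at 20 weeks, where 0.0554% of all genes were called. None was called at 8 weeks, where 0.201% of all genes were, nor with the genotype difference averaged over both times, where it was 0.222%. DESeq2 likewise called 0 of the 8 in these comparisons, where it called 0.222%, 0.52% and 0.527% of all genes, and limma-voom called 0, where it called 0.0485%, 0.187% and 0.215%. At an unadjusted p under 0.05 there was 1 gene at 20 weeks, Slc7a1, 2 genes at 8 weeks, Slc7a1 and Amd1, and 1 gene in the average, Slc7a1. At that threshold stood 2.08% of all genes at 20 weeks, 3.62% at 8 weeks and 3.71% in the average. The median log2 fold change of the 8 genes was 0.07 at 20 weeks and 0.15 at 8 weeks, against -0.01 and 0.02 over all genes tested.

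Slc7a1 was the 1 gene of the 8 with every knockout-labelled library above every WT library at both times on the CPM scale. It had 19.7, 20.8 and 17.9 CPM in 20-week knockout-labelled libraries, against 16.0, 13.3 and 12.9 CPM in 20-week WT libraries. At 8 weeks the knockout-labelled libraries held 20.98, 17.1 and 27.4 CPM, against 15.5, 16.0 and 15.2 CPM in WT libraries. All 6 knockout-labelled libraries lay above all 6 WT libraries; 0.166% of the genes tested, 24 in number, had groups apart in this way. The log2 fold change was 0.47 (SE 0.21) at 20 weeks, 0.49 (SE 0.21) at 8 weeks and 0.48 (SE 0.15, 95% interval 0.16 to 0.80) averaged over times. The average did not pass the test over all genes (edgeR unadjusted p = 0.00672, adjusted p = 0.776). On the TPM scale the genotypes were also apart within each time, with 3.57 to 4.10 TPM in knockout-labelled and 2.25 to 3.12 TPM in WT libraries of 20 weeks, and 2.89 to 4.44 TPM in knockout-labelled and 2.47 to 2.62 TPM in WT libraries of 8 weeks. With both times pooled the TPM ranges overlapped. These TPM come from the same reads as the CPM, and separations within a time were not counted over all genes.

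Arg1 had no called genotype difference. It had 780, 615 and 625 CPM in 20-week knockout-labelled libraries, against 639, 601 and 556 CPM in 20-week WT libraries. At 8 weeks it had 478, 577 and 697 CPM in knockout-labelled libraries, against 635, 551 and 671 CPM in WT libraries. The groups overlapped at both times. The averaged log2 fold change was 0.04 (SE 0.13), with a 95% interval of -0.25 to 0.33. Arg1 is also a gene of macrophages: a list of 15 macrophage and monocyte markers summed to 6.26 to 18.5 TPM in the libraries of 20 weeks and 8.10 to 22.1 TPM in those of 8 weeks. Of these 15 genes, 11 to 13 were above 0 in each group and 4 or 5 averaged at least 1 TPM. The highest values in any library were 10.8 TPM for both Lyz2 and Cd68, and Fcgr1 was at 0 in every library. Of 6 neutrophil markers, at most 2 were above 0 in a group, and their sum was at most 0.443 TPM. The part of such cells in the Arg1 level was not tested.

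Odc1 had 21.6, 10.8 and 15.6 CPM in 20-week knockout-labelled libraries, against 13.7, 14.5 and 14.0 CPM in 20-week WT libraries. At 8 weeks it had 36.9, 32.5 and 19.2 CPM in knockout-labelled libraries, against 32.6, 38.3 and 21.4 CPM in WT libraries. The genotypes overlapped at both times, and the averaged genotype log2 fold change was 0.07 (SE 0.22, 95% interval -0.41 to 0.54).

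Amd1 was the gene whose genotype difference varied most with time. It had 55.9, 54.6 and 55.3 CPM in 20-week knockout-labelled libraries, against 60.3, 59.0 and 67.3 CPM in 20-week WT libraries, with the knockout-labelled libraries all lower. At 8 weeks it had 61.3, 54.6 and 77.0 CPM in knockout-labelled libraries, against 47.7, 34.9 and 58.0 CPM in WT libraries, with overlap. The share of all genes with 3 libraries apart from 3 others was not counted. Such separations are descriptions only, here and elsewhere. Amd1 had a log2 fold change of -0.17 (SE 0.20) at 20 weeks and 0.45 (SE 0.20) at 8 weeks. The difference between these, the genotype by time interaction, was -0.62 (SE 0.29, 95% interval -1.24 to -0.0031) and did not pass over all genes (edgeR unadjusted p = 0.049, adjusted p = 1.00). None of the 8 genes had a called interaction, against 0.097% of all genes, and Amd1 was the only gene of the 8 at an unadjusted p under 0.05, a threshold that 2.18% of all genes passed. DESeq2 called none of the 8 and 0.243% of all genes in the interaction, and limma-voom none of the 8 and 0.0762%.

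Sms had 76.8, 91.4 and 87.4 CPM in 20-week knockout-labelled libraries, against 98.3, 103 and 112 CPM in 20-week WT libraries, with all 3 knockout-labelled libraries below all 3 WT libraries. At 8 weeks it had 68.0, 68.1 and 64.7 CPM in knockout-labelled libraries, against 62.9, 67.5 and 93.5 CPM in WT libraries, with overlap. The log2 fold change of -0.30 at 20 weeks (SE 0.17, adjusted p = 1.00 by edgeR) did not pass. With the reads of near copies of Sms added, as set out below, the genotypes overlapped at 20 weeks as well. The knockout-labelled libraries then had 118, 126 and 142 CPM, against 140, 139 and 144 CPM in WT libraries. Sms and Sat1 lie on the X chromosome, and the Y-linked gene Ddx3y had 101 to 113 CPM in 20-week WT libraries, against 0.39 to 1.91 CPM in the other 9 libraries. For every gene, that difference cannot be told apart from genotype at 20 weeks or from time in WT cells, and it also enters the averages and the interaction. What it contributes to Sms, Sat1 and the other genes was not tested.

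Srm, Sat1 and Azin1 had genotype log2 fold changes between -0.14 and 0.44, all with 95% intervals that include 0. Srm, the least precise of them, had 3.06 to 11.7 CPM over the 12 libraries and an averaged log2 fold change of 0.29 (SE 0.30).

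**Figure D2:**
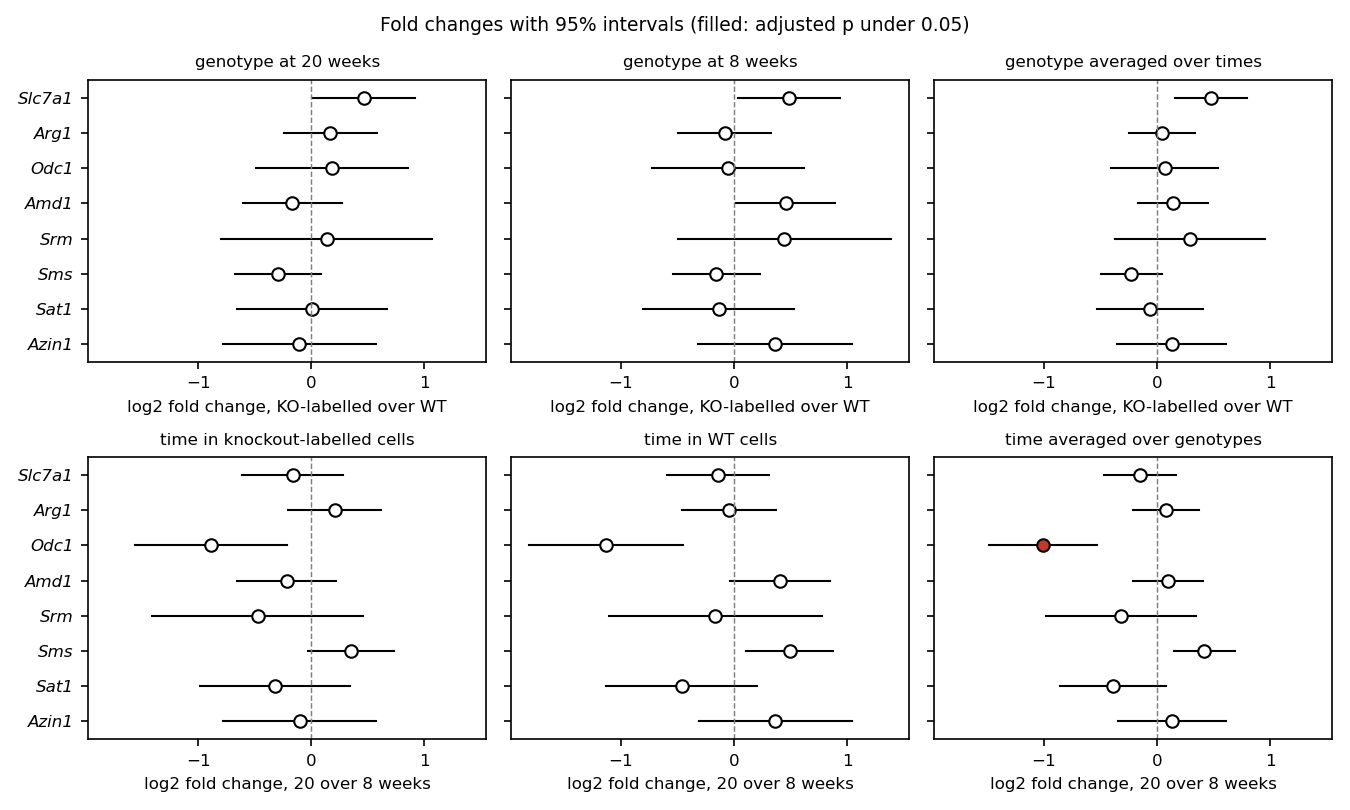
Log2 fold change of each gene (point) with its 95% interval (line) for knockout-labelled over WT cells, top row, and 20 over 8 weeks, bottom row; filled points have an edgeR adjusted p under 0.05. The 1 filled point is Odc1 at -1.01 in the time difference averaged over genotypes, and Slc7a1 lies between 0.47 and 0.49 in the 3 genotype panels.

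The second question is whether the genes differ between 20 and 8 weeks after transplant. Averaged over both genotypes, 1 of the 8 genes was called, Odc1, which was lower at 20 weeks; 2.9% of all genes were called in this comparison. DESeq2 called 2 of the 8, Odc1 and Sms, and 8.5% of all genes, and limma-voom called 1, Odc1, and 3.53%. Within 1 genotype no gene of the 8 was called, against 0.0624% of all genes in knockout-labelled cells and 0.513% in WT cells. At an unadjusted p under 0.05 there was 1 gene in knockout-labelled cells, Odc1, and 2 genes in WT cells, Odc1 and Sms, beside 8.33% and 13.3% of all genes. Those counts are 12.5% and 25% of the 8. Limma-voom called none of the 8 within a genotype, where it called 0.0624% of all genes in knockout-labelled and 0.471% in WT cells. DESeq2 called none in knockout-labelled cells, where it called 1.04% of all genes, and 1, Odc1, in WT cells, where it called 3.22%. The time comparisons use the same libraries as the genotype comparisons, and their values are not independent of those above.

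Odc1 averaged 16.0 ± 5.37 CPM in knockout-labelled and 14.1 ± 0.411 CPM in WT cells of 20 weeks, against 29.5 ± 9.25 CPM in knockout-labelled and 30.8 ± 8.58 CPM in WT cells of 8 weeks (SD, n = 3 each). The log2 fold change of 20 over 8 weeks was -1.01 (SE 0.22, 95% interval -1.49 to -0.53), a fold of 0.497, with an edgeR adjusted p of 0.0355. In WT cells alone it was -1.13 (SE 0.31, edgeR adjusted p = 0.157), with all 3 libraries of 20 weeks below all 3 of 8 weeks. That separation was not counted over all genes. In knockout-labelled cells the log2 fold change was -0.89 (SE 0.31, edgeR adjusted p = 0.472). There 21.6 CPM in the highest library of 20 weeks lay above 19.2 CPM in the lowest of 8 weeks. The call was lost when the thread number in the file headers was added to the model (log2 fold change -0.95, adjusted p = 0.105) and when any of 9 of the 12 libraries was left out (adjusted p up to 0.0935). It held without 20-week knockout-labelled replicate 1 (adjusted p = 0.0475), 8-week knockout-labelled replicate 3 (0.0148) or 8-week WT replicate 3 (0.0171). It also held without WT replicate 2 and knockout-labelled replicate 3 of 8 weeks (log2 fold change -1.03, adjusted p = 0.0147).

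Lists of cell type markers were also read by time. The ILC2 marker list summed to 5301 to 6563 TPM in libraries of 20 weeks, against 3322 to 5139 TPM in those of 8 weeks, without overlap. Id2 alone had 2608 to 4000 and 1620 to 3045 TPM, and Klrg1 1266 to 1536 and 810 to 1449 TPM. Taken singly, only Il1rl1 (83.6 to 103 and 41.0 to 75.9 TPM) and Il7r (276 to 363 and 121 to 274 TPM) did not overlap. Gata3 had 244 to 497 and 241 to 508 TPM, and Il13 ran the other way, at 8.00 to 13.5 and 10.6 to 35.0 TPM. Unlike CPM, TPM carry no TMM scaling, and the TMM factors were 1.07 to 1.11 at 20 weeks and 0.756 to 0.991 at 8 weeks. Arg1, with medians of 620 and 606 CPM at 20 and 8 weeks, had medians of 586 and 497 TPM. Whether the list sums stay apart after TMM scaling was not tested. A list of 5 markers of NK cells and type 1 innate lymphoid cells summed to 48.9 to 112 TPM at 20 weeks, against 65.1 to 317 TPM at 8 weeks, with overlap. Gzma alone had 47.2 to 107 and 59.1 to 313 TPM, while Ncr1, Klrb1c and Eomes were under 1 TPM. A list of 8 T cell markers summed to 940 to 1462 TPM, against 597 to 1160 TPM, with overlap. Trbc2 alone had 872 to 1387 and 555 to 1057 TPM, and Cd3g 48.5 to 73.8 and 37.7 to 101 TPM. No other gene of that list was above 12.4 TPM. A list of 7 dendritic cell markers summed to 5847 to 11004 TPM at 20 weeks, against 7101 to 16718.5 TPM at 8 weeks, with overlap. At least 99.9% of that sum in every library came from Cd74 and H2-Ab1, genes of the class II antigen presentation pathway that ILC2s are also known to use; of the other 5 genes Clec9a was at 0 throughout and the highest was Xcr1, at 2.18 to 4.59 TPM. A list of 7 B cell markers summed to 183 to 513 TPM at 20 weeks, against 180 to 1021 TPM at 8 weeks. What these marker values contribute to the Odc1 difference was not tested.

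Odc1 shares 56.6% of the 20-base words of its transcript with transcripts of 17 other genes, 9 of which hold at least 5% of them, so the method divides reads among them. The most abundant of these copies was Gm15470, at 3.39 to 11.8 CPM before TMM scaling. With the reads of the 9 copies added, Odc1 had 34.0, 18.1 and 22.8 CPM in knockout-labelled and 18.7, 23.2 and 21.3 CPM in 20-week WT libraries, against 42.1, 41.9 and 37.4 CPM in knockout-labelled and 40.9, 52.1 and 26.6 CPM in 8-week WT libraries. This gave a log2 fold change of -0.81 (SE 0.19, edgeR adjusted p = 0.0456).

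The values of Sms ran the other way, averaging 85.2 ± 7.56 CPM in knockout-labelled and 105 ± 7.07 CPM in WT cells of 20 weeks, against 66.9 ± 1.96 CPM in knockout-labelled and 74.6 ± 16.5 CPM in WT cells of 8 weeks (SD, n = 3 each). Within each genotype all 3 libraries of 20 weeks lay above all 3 of 8 weeks, a separation not counted over all genes. The log2 fold change of 0.42 (SE 0.12) missed the threshold with an edgeR adjusted p of 0.0938 and was under it with DESeq2 (adjusted p = 0.0336). A copy, Sms-ps, holds 17.97% of the 20-base words of Sms and had 18.6 to 58.5 CPM before TMM scaling. With its reads and those of the copy Gm6292 added, the log2 fold change was 0.29 (SE 0.13, edgeR adjusted p = 0.247). Sms then had 118, 126 and 142 CPM in knockout-labelled and 140, 139 and 144 CPM in WT libraries of 20 weeks. At 8 weeks it then had 126, 113 and 90.2 CPM in knockout-labelled and 105, 94.2 and 133 CPM in WT libraries. With the copies added, the times overlapped in knockout-labelled cells and stayed apart in WT cells.

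**Figure D3:**
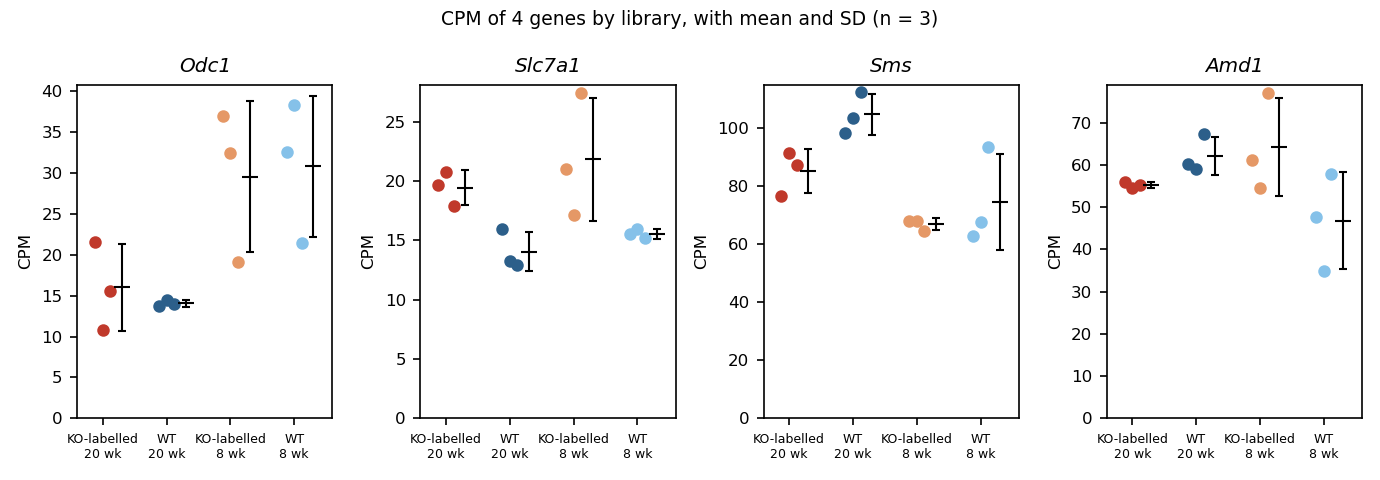
CPM of Odc1, Slc7a1, Sms and Amd1 in each library (points) with the mean and SD of each group of 3 (bar and whisker). Odc1 lies at 10.8 to 21.6 CPM at 20 weeks and 19.2 to 38.3 CPM at 8 weeks, and Slc7a1 lies at 17.1 to 27.4 CPM in knockout-labelled libraries, above the 12.9 to 16.0 CPM of WT libraries.

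The other 6 genes were not called between times by edgeR. Arg1 had a log2 fold change of 0.08 (SE 0.13, 95% interval -0.21 to 0.37). Slc7a1 had -0.16 (SE 0.15), Srm -0.32 (SE 0.30), Azin1 0.13 (SE 0.22) and Amd1 0.09 (SE 0.14). Amd1 shares 94.5% of its 20-base words with Amd2, which was at 0 to 0.226 TPM, 30.3% with Amd-ps3 and 28.4% with Amd-ps4, which had 0 to 15.3 CPM before TMM scaling, so the division of reads among them is uncertain. With the reads of its copies added, Amd1 had 59.5, 57.4 and 59.6 CPM in knockout-labelled and 60.9, 62.9 and 67.3 CPM in 20-week WT libraries, against 61.9, 61.7 and 95.4 CPM in knockout-labelled and 51.3, 52.0 and 64.5 CPM in 8-week WT libraries. Its averaged time value then turned to -0.06 (SE 0.14), and its genotype by time interaction was -0.50 (SE 0.27). Sat1 had -0.39 (SE 0.22), a value that turned to 0.17 (SE 0.13) when only protein-coding transcripts were counted.

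Sat1, Sms and Azin1 drew a large share of their TPM from transcripts annotated as not coding for a full protein. In Sat1, transcripts with a retained intron held 69.0% to 75.0% of the gene's TPM in knockout-labelled and 66.8% to 73.3% in 20-week WT libraries, against 63.2% to 87.4% in knockout-labelled and 73.2% to 87.7% in 8-week WT libraries. The most abundant was Sat1-205, at 104 to 374 TPM, which starts within the intron after exon 3 and reads through 770 bases of it into exon 4. The coding transcripts of Sat1 summed to 83.6 to 108 TPM in knockout-labelled and 89.8 to 105 TPM in 20-week WT libraries, against 66.1 to 83.9 TPM in knockout-labelled and 47.8 to 84.6 TPM in 8-week WT libraries. Another form, Sat1-207, carries an extra exon of 110 bases between exons 3 and 4 and is annotated as a target of nonsense-mediated decay. It was at 0.622 to 11.8 TPM, between 0.228% and 3.02% of the gene. Over the whole library, transcripts with a retained intron took 4.06% to 6.07% of estimated reads, most in WT replicate 2 of 8 weeks. That library also had the highest Sat1 share of TPM, 87.7%. Knockout-labelled replicate 3 of 8 weeks had nearly the same Sat1 share, 87.4%, with 4.10% of estimated reads over the library. The protocol in the labels removed ribosomal RNA and primed with random hexamers, although the RNA is labelled as polyadenylated, and what that contributes to these values was not tested.

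The boundary that tells these forms apart is shown from the GENCODE M21 transcripts (GRCm38, minus strand of chromosome X), 15 bases on each side in the direction of transcription, with the bases after the boundary in capitals. Exon 3 ends at position 155215601, exon 4 spans 155214033 to 155214134, and the extra exon spans 155215121 to 155215230. Sat1-201 and Sat1-207 share the left side, and Sat1-201 and Sat1-205 share the right side.
Sat1-201, exon 3 to exon 4: actggacccctgaagGACATAGCATTGTTG
Sat1-207, exon 3 to extra exon: actggacccctgaagGTTACAGTCTCTAGC
Sat1-205, retained intron to exon 4: atactctgattacagGACATAGCATTGTTG

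In Sms, the transcript Sms-204, annotated for nonsense-mediated decay, had 33.7, 50.5 and 39.7 TPM in knockout-labelled and 53.2, 57.8 and 48.0 TPM in 20-week WT libraries, against 31.7, 28.1 and 18.04 TPM in knockout-labelled and 30.0, 26.3 and 33.4 TPM in 8-week WT libraries. On the TPM scale all 6 libraries of 20 weeks lay above all 6 of 8 weeks, by a narrow margin of 33.7 against 33.4 TPM. TPM are not TMM-scaled, and this separation was neither checked on the CPM scale nor counted over all transcripts. The full-length coding transcript Sms-201 had 9.47 to 12.5 TPM at 20 weeks, against 4.83 to 11.5 TPM at 8 weeks. With protein-coding transcripts alone, the log2 fold change of Sms between times was 0.29 (edgeR adjusted p = 0.49). The copy Sms-ps had 26.5 to 65.1 TPM. What the division of reads with this copy contributes to the levels and shares of the Sms transcripts was not tested. Sms-204 skips exon 8 of Sms-201, so they part after the end of exon 7 (minus strand of chromosome X, position 157460327), shown with the bases after it in capitals. The 30 bases of Sms-201 are also found in a transcript of another gene of the files, while those of Sms-204 are in no other transcript of the files.
Sms-201, exon 7 to exon 8: ggagactgctatcagGTTCTTATAGAAGAC
Sms-204, exon 7 to the exon after it: ggagactgctatcagATTCCACATGGGATT

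In Azin1, transcripts annotated for nonsense-mediated decay held 53.4% to 57.9% of TPM in knockout-labelled and 50.1% to 52.6% in 20-week WT libraries, against 36.1% to 46.2% in knockout-labelled and 4.07% to 57.9% in 8-week WT libraries. The lowest value, 4.07%, was in WT replicate 2 of 8 weeks, which also had the lowest Azin1 level, 24.7 TPM. Arg1, Odc1 and Amd1 have 1 transcript each in the files, and all 3 Slc7a1 transcripts are protein coding.

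**Figure D4:**
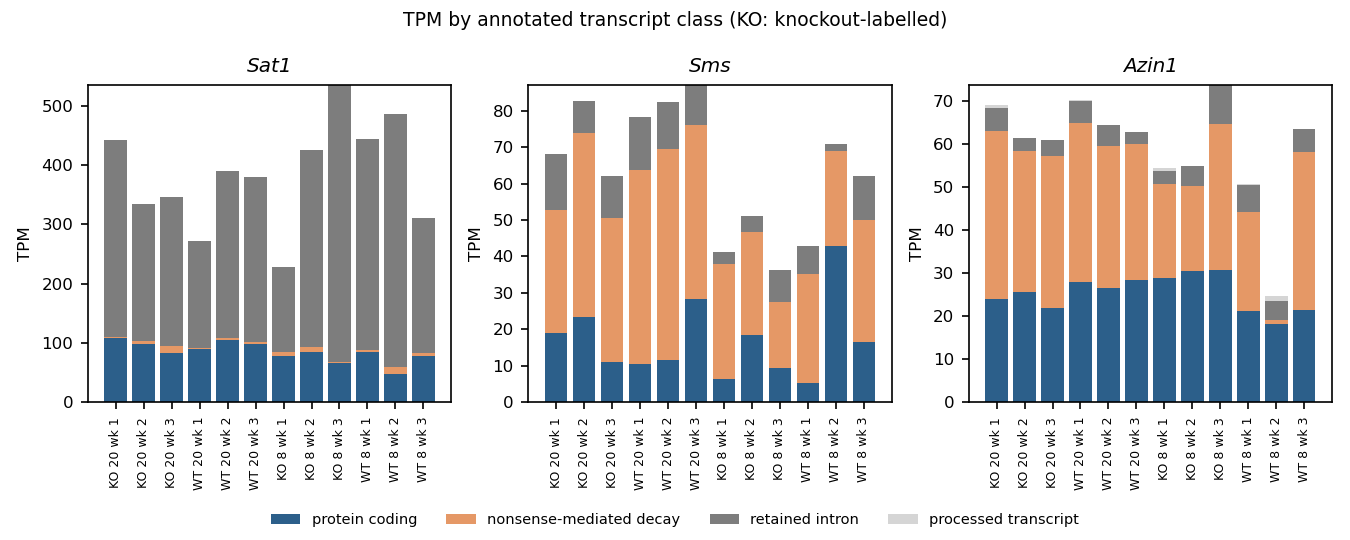
TPM of Sat1, Sms and Azin1 in each library, stacked by annotated transcript class (KO: knockout-labelled). The retained-intron part makes up 63.2% to 87.7% of each Sat1 bar, and the nonsense-mediated decay part 37.1% to 76.6% of each Sms bar. What the division of reads with the copy Sms-ps contributes to the Sms parts was not tested.

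Around the 8 genes, 71 further genes of the route were read in 6 lists: arginine and ornithine use, cationic amino acid transport, polyamine control and breakdown, use of spermidine, methionine salvage, and regulators. Of these, 57 were tested. The enzymes that remake arginine from citrulline were well above Odc1, with Ass1 at 229 to 485 TPM and Asl at 64.5 to 187 TPM over the 12 libraries. Oat, which turns ornithine towards proline, was at 28.3 to 59.8 TPM. The antizyme gene Oaz1 had 2101 to 3763 TPM, the highest level of all 79 genes, and its paralog Oaz2 had 3.22 to 14.2 TPM. The second arginase, Arg2, was at 0 to 0.738 TPM, and Nos2, the inducible nitric oxide synthase that competes for arginine, was at 0 to 0.129 TPM. The oxidases of polyamine breakdown were low as well, with Smox at 1.24 to 9.14 TPM and Paox at 0.300 to 2.92 TPM.

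Between genotypes and in the interaction, none of the 57 genes was called by edgeR, DESeq2 or limma-voom. At an unadjusted p under 0.05 there were 0 genes at 20 weeks, 2 at 8 weeks, 2 in the average and 1 in the interaction, shares of the 57 near or below the 2.08%, 3.62%, 3.71% and 2.18% of all genes. In the average they were Slc7a5, a subunit of the large neutral amino acid transporter, higher by 0.65 on the log2 scale (SE 0.22), and the stress response gene Sesn2, higher by 0.64 (SE 0.29), both with an adjusted p of 1.00. Slc7a5 had 9.79, 6.77 and 5.87 CPM in knockout-labelled and 6.36, 4.56 and 3.89 CPM in 20-week WT libraries, against 12.9, 7.04 and 12.2 CPM in knockout-labelled and 6.38, 7.51 and 5.82 CPM in 8-week WT libraries, with overlap at both times. Slc7a8, another such subunit, had 0.61 (SE 0.27, adjusted p = 1.00) at 8 weeks. The gene of the interaction, the antizyme inhibitor paralog Azin2, was under 1 CPM in every library.

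Between 20 and 8 weeks, averaged over genotypes, 1 gene of the 57 rose, Slc7a8, and 1 fell, Eif5a, by edgeR, where 2.9% of all genes were called. Another count, at an unadjusted p under 0.05, was 8 higher and 6 lower, or 24.6% of the 57, beside 18.6% of all genes in either direction. The median log2 fold change of the 57 was -0.06, against 0.02 over all genes. Within 1 genotype no gene of the 57 was called by edgeR or limma-voom; 6 in knockout-labelled and 11 in WT cells had an unadjusted p under 0.05, or 10.5% and 19.3%, beside 8.33% and 13.3% of all genes. DESeq2 called 0 of the 57 in knockout-labelled cells, where it called 1.04% of all genes, and 3 in WT cells, where it called 3.22%.

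Eif5a encodes the translation factor that carries hypusine, an amino acid made from spermidine. It had 1030, 1087 and 898 CPM in knockout-labelled and 843, 920 and 653 CPM in 20-week WT libraries, against 1483, 1331 and 1633 CPM in knockout-labelled and 1478, 1634 and 1012 CPM in 8-week WT libraries. Within each genotype the libraries of 20 weeks were all lower, a separation not counted over all genes. Its log2 fold change was -0.67 (SE 0.15, edgeR adjusted p = 0.041). Dhps and Dohh, which make hypusine on it, were not called.

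Slc7a8 had 80.9, 75.4 and 74.7 CPM in knockout-labelled and 83.0, 66.8 and 58.2 CPM in 20-week WT libraries, against 64.9, 55.1 and 30.8 CPM in knockout-labelled and 42.5, 31.2 and 25.1 CPM in 8-week WT libraries. Within each genotype the libraries of 20 weeks were all higher, a separation not counted over all genes. Slc7a8 had a log2 fold change of 0.84 (SE 0.19, edgeR adjusted p = 0.0408). Both calls were lost with the thread number in the model (adjusted p = 0.102 for Eif5a and 0.0791 for Slc7a8) and with most single libraries left out, 10 of 12 for Eif5a and 9 of 12 for Slc7a8; both held without 8-week knockout-labelled replicate 3 and without 8-week WT replicate 3, and Slc7a8 also without 8-week knockout-labelled replicate 1.

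Of the genes that did not pass, the 2 highest and 2 lowest log2 fold changes of the averaged time comparison at an unadjusted p under 0.05 were Azin2, Slc18b1, Slc25a2 and Max. Slc18b1, a vesicular polyamine transporter, had 1.15, 1.38 and 2.17 CPM in knockout-labelled and 2.49, 1.93 and 2.88 CPM in 20-week WT libraries, against 1.11, 0.53 and 1.39 CPM in knockout-labelled and 0.57, 0.40 and 0.74 CPM in 8-week WT libraries, with a log2 fold change of 1.36 (SE 0.35, edgeR adjusted p = 0.0609). Azin2 and Slc25a2, a mitochondrial ornithine carrier, were at 0 in some libraries and at most 1.09 CPM, which gives their fold changes little precision. Max, the partner of Myc, was at 126 CPM in knockout-labelled replicate 3 and 61.7 CPM in WT replicate 2 of 8 weeks, the libraries that stood apart, and at 7.03 to 17.2 CPM in the other 10. In knockout-labelled cells alone, the methionine salvage enzyme Apip was among the lowest, at -0.56 on the log2 scale (SE 0.21, edgeR adjusted p = 0.519).

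Oaz1, Mat2a and Myc were looked at after their values were seen. Oaz1 had 1732, 1748 and 1780 CPM in knockout-labelled and 1783, 1751 and 1809 CPM in 20-week WT libraries, against 2389, 2541 and 1571 CPM in knockout-labelled and 2393, 2561 and 2272 CPM in 8-week WT libraries, so that 5 of the 6 libraries of 8 weeks lay above all of 20 weeks; its log2 fold change was -0.37 (SE 0.14, edgeR adjusted p = 0.167). Mat2a, which makes S-adenosylmethionine, was higher by 0.51 on the log2 scale (SE 0.16, edgeR adjusted p = 0.103). All its libraries of 20 weeks were higher within each genotype, a separation not counted over all genes. Myc, a known activator of Odc1 in mouse and human cells, had 0.41 (SE 0.15, edgeR adjusted p = 0.155). The part of Myc in the Odc1 difference was not tested.

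**Figure D5:**
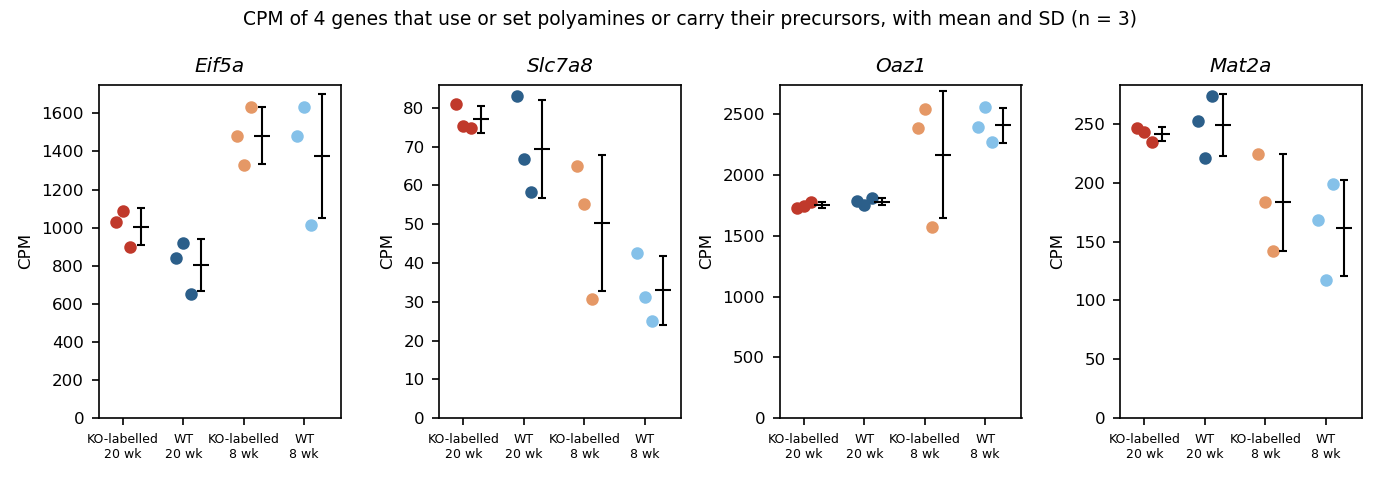
CPM of Eif5a, Slc7a8, Oaz1 and Mat2a in each library (points) with the mean and SD of each group of 3 (bar and whisker). Eif5a lies at 653 to 1087 CPM at 20 weeks and 1012 to 1634 CPM at 8 weeks, while Slc7a8 lies at 58.2 to 83.0 CPM at 20 weeks and 25.1 to 64.9 CPM at 8 weeks.

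The genes whose log2 CPM ran most alike with a gene of the route over the 12 libraries were found for Arg1 and Odc1. For Arg1 they were Ndufs1 (Pearson r = 0.879), 5330417C22Rik (0.877) and Mpp5 (0.848). For Odc1 they were Mrpl14 (0.961), Cops6 (0.957) and Slc25a4 (0.952). These are the highest of all genes tested, the 12 points share the 4 groups and 2 libraries that stand apart, and without those libraries the 3 most alike of Arg1 were other genes, while Mrpl14 and Slc25a4 remained among those of Odc1.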

How the data were processed

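The deposited files hold, per the file headers, an expected count (estimated number of reads) and a TPM for every transcript, made with sailfish 0.6.3 from 20-base words against Ensembl release 76. The submitters' processing notes also list STAR 2.0.4b and featureCounts 1.4.5, with no role. TPM served for levels and transcripts, counts for tests. Of 86127 transcripts, 83739 (97.2%) matched GENCODE M21 (GRCm38) by identifier and were summed to genes; reads without a match took 1.01% to 1.54% of a library. Expected counts were rounded, filtered with filterByExpr, TMM-scaled and fitted with edgeR 4.0.16 (R 4.3.3) on 4 group means, with p-values adjusted over all genes and SEs from the F statistic; limma 3.58.1, DESeq2 1.42.0 and the other settings named below were alternatives. The model was tested on simulated counts. CPM are on the TMM scale.

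The 8 genes, the lists and the rule for naming further genes (called, or the 2 highest and 2 lowest log2 fold changes at an unadjusted p under 0.05 in a comparison) were chosen with earlier results of these data known. A copy was a gene with at least 5% of a gene's words. The series' design text gives a later time other than the 20 weeks of the labels, which was used. The headers record 24 threads for 6 libraries, all 3 knockout-labelled ones of 20 weeks among them, and 8 for the others. Genotypes shared their hosts, but the labels do not say that equal replicate numbers mark a shared mouse. Same-numbered libraries deviated from their group means together at 8 weeks (correlations 0.226, 0.158 and 0.107) and less so at 20 weeks (0.0707, 0.0715 and 0.117).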

Additional observations from a re-analysis of the deposited data

How the results depend on the processing

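Genotype and interaction calls stayed at 0 of the 8 genes and 0 of the 57 further genes under all settings run. Between times averaged over genotypes, the 8 genes gave 1 call in edgeR, 2 with DESeq2 (Odc1 and Sms), which called 8.5% of all genes, 0 with the thread number as a covariate, and 0 to 2 with single libraries left out; the further genes gave 2 calls in edgeR, 5 with DESeq2, 1 without a low-count filter, 1 with length-scaled TPM counts, 0 with the thread number, 5 without both 8-week libraries that stood apart, and 0 to 6 with single libraries left out. In WT cells DESeq2 called 1 of the 8 and 3 of the 57 between times, against 0 in edgeR, and single libraries left out gave 0 to 1 of the 57. The replicate block joined equal replicate numbers within a time for genotype, and across the times for time comparisons. Across times, same-numbered libraries had correlations of -0.110 to -0.0540 in knockout-labelled and 0.0231 to 0.147 in WT cells, so that block does not stand for shared mice. With it the Odc1 call was kept (log2 fold change -0.98, edgeR adjusted p = 0.0469). Neither block changed a call of the 8 genes. Over all genes the block left 15 calls, against 29 without it, for genotype at 8 weeks, 4 against 8 at 20 weeks and 5 against 9 for time in knockout-labelled cells. Each knockout-labelled library correlated best with the WT library of its own number at both times, a hint from the data, not the design. Over all alternatives Odc1 kept its direction between times, with log2 fold changes of -1.16 to -0.81 and adjusted p of 0.000724 to 0.105, and Slc7a1 kept its direction between genotypes, with 0.39 to 0.55. Of 1392 alternative values of the 8 genes, 65 had the other sign, none of them of a called value. Counting protein-coding transcripts only and adding the reads of near copies were chosen after the data were seen. The fit on libraries of 8 threads was possible for genotype at 8 weeks and time in WT cells. The order of the 8 levels was the same in CPM per kb. The spread between libraries limits the fit: the median SE over all genes was 0.348 for genotype at 20 weeks. For the 8 genes it ran from 0.17 (Sms) to 0.43 (Srm) in that comparison, so small differences in any of them could go undetected.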
